A study of Mus musculus with 24 samples.

Results

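The choroid plexus is the secretory epithelium of the brain ventricles, and 10 genes typical of it were followed among the 55385 genes of the count table. Clic6 and Kcne2 lie on mouse chromosome 16 (Mmu16) inside the segment that Ts65Dn mice carry in 3 copies. The other 8, Ttr, Kl, Folr1, Aqp1, Otx2, Prlr, Sostdc1 and Kcnj13, lie on other chromosomes and are present in the usual 2 copies. The 10 genes were named from what is known of this epithelium, and no measured value is part of the rule, although earlier results of these data were known when they were named. The question was whether Clic6 and Kcne2 differed between genotypes by more than the amount of choroid plexus transcript, read from the 8 genes with 2 copies, differed between libraries.

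RNA was sequenced from the hippocampus (HIP) and the entorhinal cortex (EC) of 12 male mice, 6 Ts65Dn and 6 wild-type (wt) littermates, aged 5-6 months. Every mouse gave 1 HIP and 1 EC library, so there were 24 libraries in 4 groups of 6. Ts65Dn mice carry an additional small chromosome that joins the distal part of Mmu16 to a proximal part of chromosome 17, so that they are trisomic for both segments. The wt mice had no additional chromosome. Both genotypes were on an F1 B6C3B background, received no treatment that the labels name, and gave flash-frozen tissue. The chromosome 17 segment is not syntenic to human chromosome 21, which limits Ts65Dn as a model.

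Choroid plexus epithelial cells make cerebrospinal fluid by moving ions and water from blood to ventricle, and they secrete carrier proteins, hormones and growth factor antagonists into it. The tissue is attached along the margin of the hippocampus in the lateral ventricle and is not part of the EC. Its leading transcripts are far more abundant there than in neurons or glia.

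The library totals ranged from 23128589 to 40476492 counts with a median of 28597506. Levels are given as CPM, counts scaled to the normalised library size. The labels were checked with 80 expressed protein-coding Mmu16 genes of the triplicated segment other than Clic6 and Kcne2. Their median level relative to the wt mean was 1.44-fold to 1.53-fold in 5 Ts65Dn HIP libraries and 1.46-fold to 1.51-fold in 5 Ts65Dn EC libraries. In the libraries labelled Ts65Dn replicate 3 it was 1.02-fold in the HIP and 1.01-fold in the EC, within the range of 0.985-fold to 1.01-fold in wt or just above it. Both libraries of this mouse thus went against their label, and the main edgeR and permutation results between genotypes are given with and without them. The permutation tests with other indices were made only with them.

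Kcne2 encodes a single-span accessory subunit that assembles with potassium channels such as Kcnq1 and Kcna3 at the apical face of choroid plexus epithelium. Its gene spans chr16:92292389-92298129 on the plus strand (GRCm38, ENSMUSG00000039672). Clic6, a member of the chloride intracellular channel family found in secretory epithelia, spans chr16:92485736-92541243 on the plus strand (ENSMUSG00000022949). Otx2 encodes the homeodomain transcription factor that the choroid plexus needs to form and to be maintained. RefSeq windows of 250 bases before and 50 bases after an annotated start (GRCm38.p6) were at hand for 6 of the 10 genes, Kcne2, Otx2, Kl, Aqp1, Prlr and Kcnj13, with 12 windows in all. The core motif that Otx2 recognises, TAATCC on either strand (GGATTA on the other), was in 1 of these 12 windows, at Otx2 itself, and in 7.1% of the 32851 windows of all genes. The 250 bases before the start of Kcne2, as the triplicated gene, and of the Otx2 window that holds the motif, in capitals, are shown 5′ to 3′ on each gene's own strand. They are chr16:92292139-92292388 (plus strand) and chr14:48665110-48665359 (minus strand).
Kcne2: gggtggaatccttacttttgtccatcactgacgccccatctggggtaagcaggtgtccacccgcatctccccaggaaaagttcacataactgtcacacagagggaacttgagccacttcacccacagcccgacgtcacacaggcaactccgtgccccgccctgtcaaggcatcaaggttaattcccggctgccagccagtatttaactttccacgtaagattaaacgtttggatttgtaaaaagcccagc
Otx2: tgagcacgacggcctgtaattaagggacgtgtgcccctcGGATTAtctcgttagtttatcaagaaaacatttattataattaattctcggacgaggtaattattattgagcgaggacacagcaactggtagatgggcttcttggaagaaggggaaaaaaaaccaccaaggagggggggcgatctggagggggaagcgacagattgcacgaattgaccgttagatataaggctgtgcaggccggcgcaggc
The Kcne2 window has no match to these letters, which says nothing of whether the factor acts on the gene.

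The HIP libraries differed among themselves in all 10 genes by more than the genotypes did. Clic6 ranged from 7.14 CPM to 80.2 CPM in wt HIP (median 25) and from 4.41 CPM to 133 CPM in Ts65Dn HIP (median 60.8). Kcne2 ranged from 0.327 CPM to 26.3 CPM in wt HIP (median 8.18) and from 0.173 CPM to 39.6 CPM in Ts65Dn HIP (median 19.8). For both genes the Ts65Dn median lay above the wt median, but the ranges overlapped almost whole, and the lowest library of all was a Ts65Dn library.

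Ttr, the secreted carrier of thyroxine and of the retinol-binding protein, was the most abundant of the 10. Its level ran from 56.9 CPM to 4583 CPM in wt HIP (median 1191) and from 19.2 CPM to 4805 CPM in Ts65Dn HIP (median 1777), a span of 250-fold over the 12 libraries. The ion and water transport genes spread as widely. Aqp1, the apical water channel, ran from 0.684 CPM to 31.3 CPM in wt HIP and from 0.173 CPM to 32.8 CPM in Ts65Dn HIP. Kcnj13, the apical inward rectifier potassium channel Kir7.1, ran from 0.357 CPM to 15.3 CPM in wt HIP and from 0.0432 CPM to 14.7 CPM in Ts65Dn HIP, and its span of 354-fold was the widest of the 10, although its lowest library had 1 count. Neither gene separated the genotypes.

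Folr1, the receptor that carries folate across the epithelium, ran from 1.01 CPM to 32.3 CPM in wt HIP (median 6.64) and from 0.519 CPM to 36.9 CPM in Ts65Dn HIP (median 13.1). Among the hormone and growth factor genes, Prlr, the prolactin receptor, ran from 4.20 CPM to 74.2 CPM in wt HIP (median 21.8) and from 3.24 CPM to 53.4 CPM in Ts65Dn HIP (median 34.0). Sostdc1, a secreted antagonist of BMP and Wnt signalling, ran from 4.08 CPM to 51.5 CPM in wt HIP (median 12.2) and from 3.24 CPM to 45.5 CPM in Ts65Dn HIP (median 28.6). In each of these genes the wt range and the Ts65Dn range covered each other almost completely.

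Kl encodes klotho, the co-receptor for endocrine fibroblast growth factors. It had the narrowest span of the 10, 6.72-fold, from 27.3 CPM to 162 CPM in wt HIP (median 68.6) and from 31.1 CPM to 183 CPM in Ts65Dn HIP (median 106). Otx2 had a span of 15.4-fold, from 1.76 CPM to 17.4 CPM in wt HIP (median 4.67) and from 1.12 CPM to 16.7 CPM in Ts65Dn HIP (median 9.0). Kcnj13 lies inside the gene Gigyf2 and Folr1 overlaps Anapc15, in both cases on the opposite strand, so their lowest counts can include reads of the partner gene if strand was not used in counting.

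**Figure D1:**
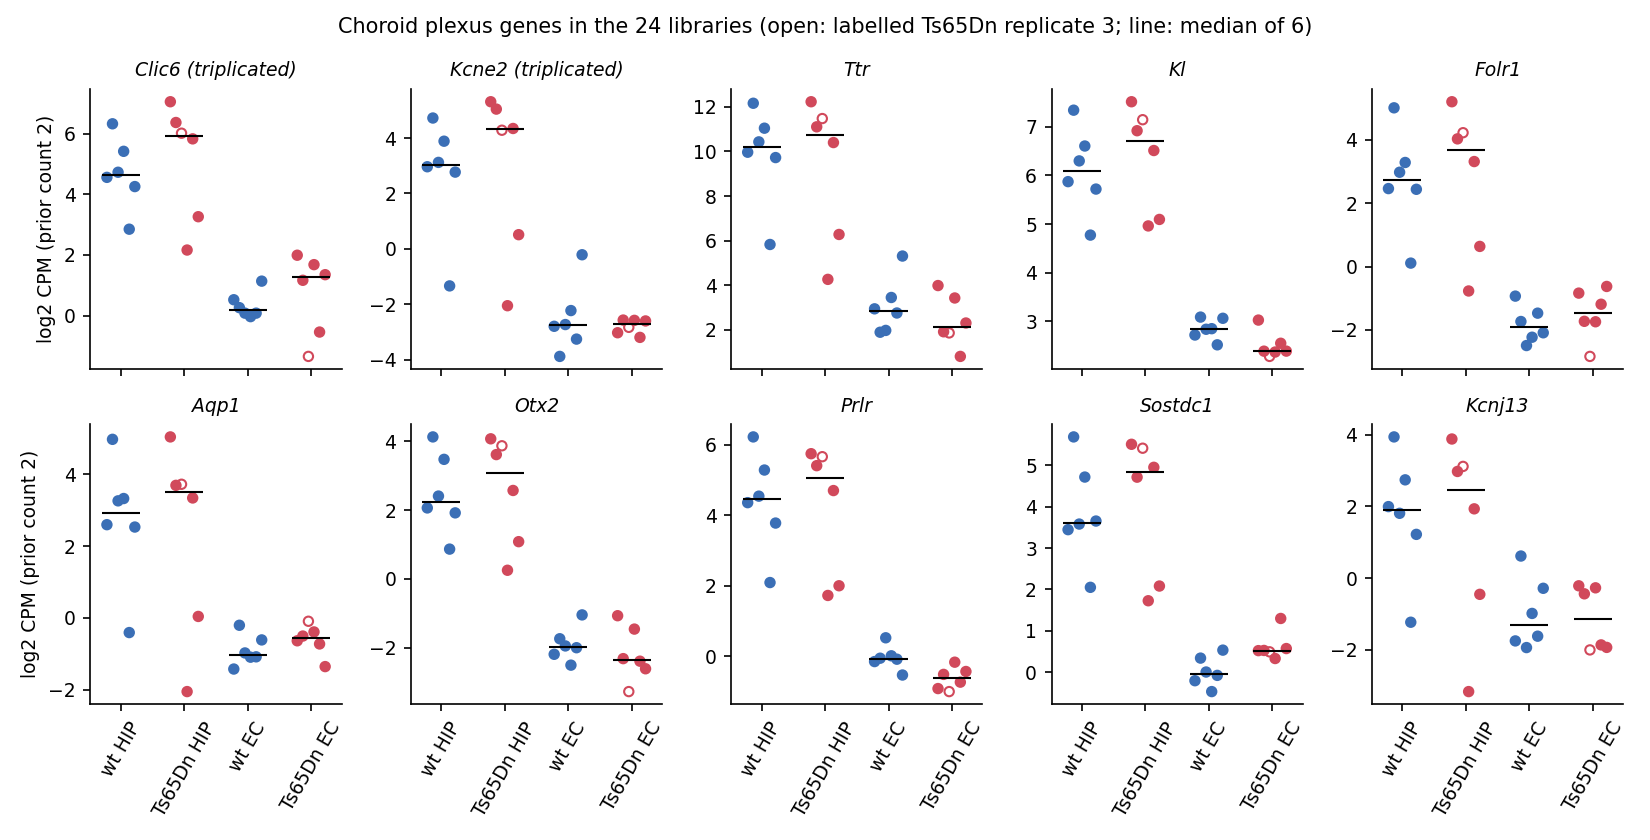
Log2 CPM (prior count 2, vertical axes) of the 10 choroid plexus genes in each of the 24 libraries by group, with 1 point a library, a line at the median of each group of 6, and open symbols for the libraries labelled Ts65Dn replicate 3. The HIP points of Ttr spread from 4.27 to 12.2 in log2 CPM, and the wt and Ts65Dn HIP points overlap in all 10 panels.

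Divided by the length of the merged exons, the median levels over the 12 HIP libraries were 1152 CPM per kb for Ttr, 10.9 for Sostdc1, 9.11 for Kl, 8.83 for Clic6, 6.60 for Kcne2, 3.82 for Folr1, 3.70 for Aqp1, 3.02 for Kcnj13, 1.60 for Prlr and 1.31 for Otx2. Ttr was above Sostdc1 in 12 of 12 libraries and Clic6 was above Kcne2 in 12 of 12. Sostdc1 was above Kl in only 7 of 12 libraries, Kl above Clic6 in 6, Aqp1 above Kcnj13 in 5 and Prlr above Otx2 in 5, so the order of these neighbours did not hold beyond their spread.

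The 10 genes rose and fell together across the HIP libraries. Over the 45 pairs of genes, Pearson's r of log2 CPM across the 12 libraries ran from 0.93 (Kcnj13 with Kl) through a median of 0.97 to 0.99 (Aqp1 with Ttr), and Clic6 with Kcne2 gave 0.97. These correlations are descriptions over libraries that share genotype and tissue. In the EC, where most of the genes had few counts, the same 45 pairs ran from -0.66 (Sostdc1 with Prlr) to 0.72 (Ttr with Kcne2) with a median of 0.083, and Clic6 with Kcne2 gave 0.26.

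A choroid plexus index was therefore formed for each library as the mean log2 CPM of the 8 genes with 2 copies. In wt HIP the index ran from 1.76 to 6.18 with a median of 4.25, and in Ts65Dn HIP from 0.87 to 6.15 with a median of 5.01. The libraries wt replicate 5 (1.76), Ts65Dn replicate 4 (0.87) and Ts65Dn replicate 6 (2.09) lay apart from the other 9 HIP libraries, which ran from 3.87 to 6.18. In the EC all 12 libraries lay between -0.57 and 0.54. The genes of the index did not vary together as a set there. The EC index therefore cannot be read as the amount of choroid plexus transcript in the way the HIP index can. In bulk tissue, less attached choroid plexus, fewer of its cells and less RNA per cell cannot be told apart.

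The genes outside the 10 whose levels were most like the index over all 24 libraries were Mfrp (r = 0.995), 1500015O10Rik (0.994), F5 (0.992), Cldn2 (0.991) and Slc4a5 (0.990). Mfrp, F5, Cldn2 and Slc4a5 were on a list of 30 other choroid plexus epithelial genes. Among 18100 genes ranked by this r, Kcne2 stood at rank 13 and Clic6 at rank 17, close to the 8 genes that form the index, which took ranks 7 to 89. All of these values share the large step between HIP and EC.

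In the HIP no member of the 10 was called different between Ts65Dn and wt by edgeR's quasi-likelihood test at a Benjamini-Hochberg adjusted p under 0.05, against 1.04% of the 17355 genes tested. No member had an unadjusted p under 0.05, against 2572 of the 17355 genes. DESeq2 called 0 of 10, and 575 genes in all. The fitted log2 fold changes were all positive, with a median of 0.30 over the 10 genes and 0.22 over the 8 with 2 copies, beside 0.0047 over all genes tested. The 10 genes follow each other from library to library, so their common sign counts as 1 observation rather than 10.

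For Clic6 the log2 fold change in the HIP was 0.81 (1.75-fold, SE 0.67, adjusted p = 0.618), with a 95% interval from -0.63 to 2.25. For Kcne2 it was also 0.81 (SE 0.84, adjusted p = 0.704), with an interval from -1.0 to 2.62. Each interval holds 0 and also 0.58, the log2 of 3 copies over 2. The spread of choroid plexus transcript between libraries was thus too wide to show or to exclude a 1.5-fold change.

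The 8 genes with 2 copies had smaller log2 fold changes in the HIP, from 0.030 for Prlr to 0.43 for Folr1, with 0.17 for Ttr, 0.33 for Kl, 0.13 for Aqp1, 0.27 for Otx2, 0.37 for Sostdc1 and 0.14 for Kcnj13. Their standard errors ran from 0.46 for Kl to 1.0 for Ttr, larger than every one of these values. When the library labelled Ts65Dn replicate 3 was left out they ran from -0.18 for Prlr, which turned negative, to 0.32 for Folr1, with 0.015 for Ttr, 0.21 for Kl, 0.096 for Aqp1, 0.063 for Otx2, 0.16 for Sostdc1 and 0.0049 for Kcnj13, and the median over the 10 genes was 0.13. Without that library the log2 fold changes were 0.77 for Clic6 (adjusted p = 0.628) and 0.80 for Kcne2 (adjusted p = 0.701), and 0 of 10 were called against 1.82% of 17452 genes.

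Set at the same choroid plexus index, Clic6 was higher in Ts65Dn HIP. With genotype and the index as terms of one fit, its log2 fold change was 0.56 (1.47-fold, SE 0.11, interval 0.33 to 0.78, adjusted p = 0.0261), and the calls covered 1.26% of the 17355 genes tested. Leaving out the library labelled Ts65Dn replicate 3 gave 0.63 (1.55-fold, interval 0.45 to 0.82, adjusted p = 0.00164), with 1.9% of 17452 genes called. In the fit with the index DESeq2 called 675 genes in all. Among them were 2 of the 10, Clic6 (adjusted p = 0.000157) and Kl, which has 2 copies. By edgeR 3 of the 10 had an unadjusted p under 0.05 in this fit, beside 2816 of the 17355 genes tested. The 3 were Clic6, Kl at 0.31 (adjusted p = 0.122) and Ttr at -0.44 (adjusted p = 0.176). Kl and Ttr are part of the index, so their values at the same index are not independent of it.

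The call was lost on leaving out any of 7 single libraries. Leaving out wt replicate 1 gave an adjusted p of 0.0511, wt replicate 2 gave 0.0573, wt replicate 3 gave 0.0705, wt replicate 6 gave 0.0631, Ts65Dn replicate 1 gave 0.0634, Ts65Dn replicate 2 gave 0.0514 and Ts65Dn replicate 6 gave 0.0531. The log2 fold change of Clic6 stayed between 0.51 and 0.63 in all 12 such fits, and 5 of them kept the call. The fit with the replicate number as a block gave 0.53 (adjusted p = 0.0664). Over all alternatives run, the adjusted p of Clic6 at the same index ran from 0.000157 to 0.264 and its log2 fold change from 0.51 to 0.77.

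For Kcne2 at the same index the HIP value was 0.44 on the log2 scale (1.36-fold, SE 0.26, interval -0.13 to 1.01, adjusted p = 0.444). Leaving out the library labelled Ts65Dn replicate 3 gave 0.57 (interval 0.019 to 1.12, adjusted p = 0.264). Neither value was called, and over all alternatives run the adjusted p ran from 0.0122 to 0.692. Both intervals hold 0.58, and the first also holds 0.

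The index entered these fits with a slope of its own for each gene. Clic6 rose by 0.87 log2 units per unit of the index (interval 0.79 to 0.95) and Kcne2 by 1.25 (interval 1.03 to 1.47). Clic6 therefore changed less than 1 to 1 with this index in the HIP and Kcne2 changed more. The genes of the index had HIP spans from 6.72-fold (Kl) to 354-fold (Kcnj13). A slope against their mean therefore need not hold against any 1 of them. In the EC, where the index spanned only -0.57 to 0.54, the slope of Clic6 lay the other way, at 2.06 (interval 1.0 to 3.11). The count of Clic6 over the count of Kcne2 was 2.51 to 3.35 in the 9 HIP libraries of higher index, and 21.8, 25.5 and 7.02 in wt replicate 5, Ts65Dn replicate 4 and Ts65Dn replicate 6. Kcne2 had 11, 4 and 41 counts in these 3 libraries and Clic6 had 240, 102 and 288.

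**Figure D2:**
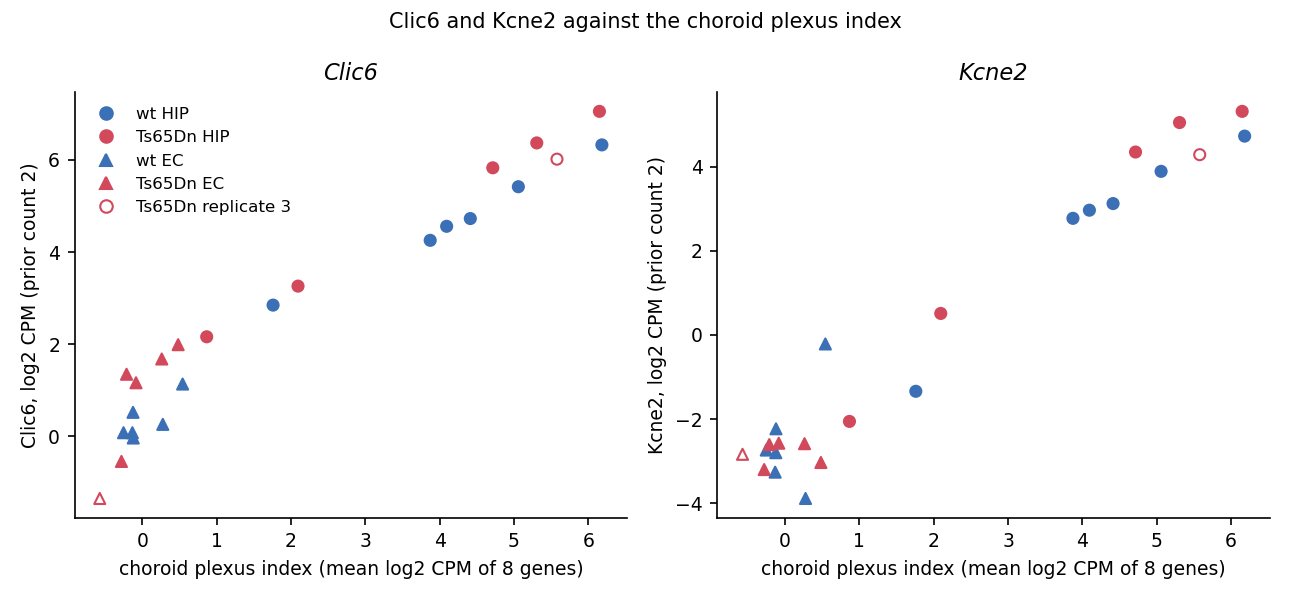
Log2 CPM of Clic6 (left) and of Kcne2 (right) in the 24 libraries against the choroid plexus index of the library, the mean log2 CPM of the 8 genes with 2 copies; circles are HIP and triangles EC libraries, blue is wt and red Ts65Dn, and open symbols are the libraries labelled Ts65Dn replicate 3. In the HIP both genes follow the index from 0.87 to 6.18, and at an index over 3.87 the filled Ts65Dn points of both genes lie above the wt points of like index.

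Without the 3 libraries of low index, a setting chosen after the data had been seen, the log2 fold changes at the same index were 0.66 for Clic6 (adjusted p = 0.264) and 0.72 for Kcne2 (adjusted p = 0.390). Leaving out the library labelled Ts65Dn replicate 3 as well gave 0.77 for Clic6 (adjusted p = 0.00149) and 0.87 for Kcne2 (adjusted p = 0.0122). Only in this last setting, with 5 wt and 3 Ts65Dn libraries, were both triplicated genes called.

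A test with no model was made on log2 CPM of the gene minus the index, 1 value a library, which takes the gene and the index to rise 1 to 1. For Clic6 in the HIP the wt values lay between 0.14 and 1.09 with a median of 0.37, and the Ts65Dn values between 0.44 and 1.30 with a median of 1.09. In Ts65Dn 5 libraries lay at 0.91 or higher, and 5 wt libraries lay at 0.47 or lower. The exceptions were wt replicate 5, at 1.09, and the library labelled Ts65Dn replicate 3, at 0.44. The 3 libraries of low index all lay high, wt replicate 5 and Ts65Dn replicates 4 (1.30) and 6 (1.17). The slope of Clic6 in the HIP, 0.87 (interval 0.79 to 0.95), was under 1. A lower index thus goes with a higher value in either genotype, and the 5 and 5 libraries are not set at equal index here.

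The mean was 1.0 ± 0.30 (SD, n = 6) in Ts65Dn and 0.46 ± 0.33 in wt, a difference of 0.54 (two-sided exact permutation test over 924 splits, p = 0.0238, adjusted over 4 tests p = 0.0952). The smallest p this design allows is 0.00216. Without the library labelled Ts65Dn replicate 3 the difference was 0.65 (exact p = 0.00866, adjusted p = 0.0346), and without wt replicate 5 it was 0.66 (exact p = 0.00649, adjusted p = 0.0260). The adjusted p of the other 10 such tests ran up to 0.147. The difference was 0.99 with Ttr alone as the index (exact p = 0.186, adjusted p = 0.248). With summed CPM as the index it was 0.76 (exact p = 0.134, adjusted p = 0.179). Without Kl and Otx2 in the index it was 0.63 (exact p = 0.0455, adjusted p = 0.182).

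For Kcne2 in the HIP, the wt values lay between -3.10 and -1.10 with a median of -1.23, and the Ts65Dn values between -2.92 and -0.26 with a median of -1.07. Its mean was -1.21 ± 0.98 in Ts65Dn and -1.54 ± 0.77 in wt (SD, n = 6), a difference of 0.33 (exact permutation p = 0.513, adjusted p = 0.684). Leaving out Ts65Dn replicate 3 gave a difference of 0.35 (exact p = 0.530, adjusted p = 0.632). It was 0.020 without wt replicate 5 and 0.67 without Ts65Dn replicate 4, and in none of the 12 such tests was the adjusted p under 0.277. The low ends came from wt replicate 5 and Ts65Dn replicate 4, where Kcne2 had 11 and 4 counts. Ts65Dn replicates 1, 2 and 5 lay at -0.84, -0.26 and -0.37, above every wt library, while the library labelled Ts65Dn replicate 3 lay at -1.30, among them. Ts65Dn replicate 6, with 41 counts of Kcne2, lay at -1.59, below 5 of the 6 wt libraries. With Ttr alone in place of the index the difference was 0.79 (exact p = 0.0130, adjusted p = 0.0519).

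**Figure D3:**
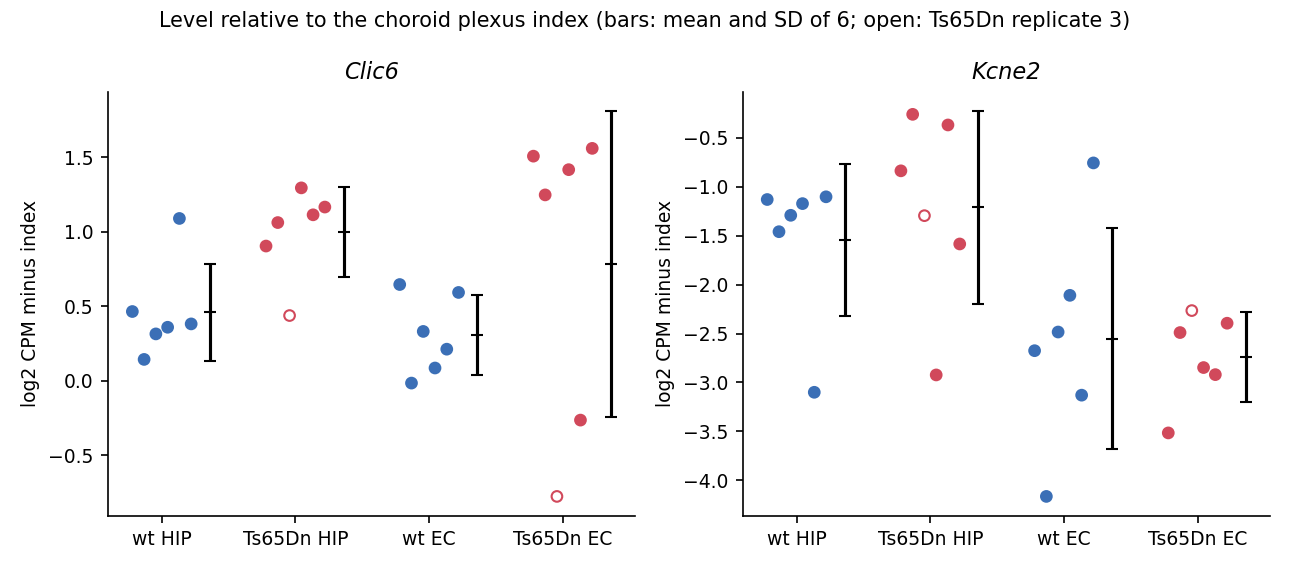
Log2 CPM of Clic6 (left) and of Kcne2 (right) minus the choroid plexus index in each library by group, with the mean and SD of the 6 libraries beside the points; open symbols are the libraries labelled Ts65Dn replicate 3. In the HIP the Clic6 means are 1.0 in Ts65Dn and 0.46 in wt, and the Kcne2 means are -1.21 and -1.54.

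The other genes of the epithelium give the background for these values. Of the 30 other choroid plexus epithelial genes, all in 2 copies and all tested in the HIP, 0 were called between genotypes by edgeR (1 at an unadjusted p under 0.05), 1 was called by DESeq2 (Slc22a8), and their median log2 fold change was 0.28. With the index as a term 0 of 30 were called by edgeR (5 unadjusted), 2 by DESeq2 (Slc13a4 and Slc22a8), and the median was 0.14 with quartiles of 0.025 and 0.22. The value of Clic6, 0.56, was reached by 1 of the 30, Igfbp2 at 0.60, and the value of Kcne2, 0.44, by Igfbp2 and by Slc13a4 at 0.47. The 2 most abundant of the list, Enpp2 and Vat1l, had 0.22 and -0.041. Without the library labelled Ts65Dn replicate 3, 1 of 30 was called with or without the index (Slc22a8). Slc22a8, an organic anion transporter, did not follow the index over the 12 HIP libraries (r = -0.15), unlike 22 of the 30 genes, whose r was over 0.9.

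The genes beside Clic6 and Kcne2 in the triplicated segment are not choroid plexus genes and are given here as other genes in 3 copies. Mrps6, Slc5a3, Smim11, Kcne1, Rcan1 and Runx1 lie from chr16:92058270 to chr16:92826149, and 5 of the 6 were tested, since Kcne1 had at most 7 counts in any library. In the HIP, Rcan1, the regulator of calcineurin, was called (log2 fold change 0.57, adjusted p = 0.0167), and with the index as a term Rcan1 (0.56) and Mrps6 (0.67), which encodes a mitochondrial ribosomal protein, were called, 2 of 5. Without the index Mrps6 had 0.66, Smim11 0.34, Slc5a3 0.21 and Runx1 0.12 in the HIP, none of them called. The median over the 5 was 0.34. Rcan1 ran from 49.8 CPM to 53.3 CPM in wt HIP and from 52.2 CPM to 88.4 CPM in Ts65Dn HIP, so its wt range was far narrower than that of Clic6. In the EC Mrps6 (0.73), Rcan1 (0.60) and Smim11 (0.46) were called, 3 of 5. Without the libraries labelled Ts65Dn replicate 3, Mrps6 and Rcan1 were called in the HIP and Slc5a3 was called beside the other 3 in the EC. Slc5a3 lies within the span of Mrps6 on the same strand, so the overlap can affect the counts of both.

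Slc5a3 is also the myo-inositol transporter that binds Kcne2-containing channels. Of the 3 partners of Kcne2, 0 were called in the HIP by edgeR (1 unadjusted) or by DESeq2, and the log2 fold changes were 0.41 for Kcna3, 0.36 for Kcnq1 and 0.21 for Slc5a3. Of the other genes of the CLIC family 0 of 4 were called in the HIP and 0 of the 3 tested in the EC (0 unadjusted and 0 by DESeq2 in both), with HIP values of 0.13 for Clic4 and 0.35 for Clic5. Of the other KCNE genes 2 of 4 were tested, Kcne1l and Kcne4, and 0 were called (0 unadjusted, 0 by DESeq2). In the list of thyroid hormone and retinoid transport genes, to which Ttr is functionally tied, 0 of 6 were called in the HIP by edgeR (2 unadjusted) and 2 by DESeq2 (Stra6 and Dio2), while Dio2, the enzyme that makes active thyroid hormone, was lower in Ts65Dn EC (log2 fold change -0.43, adjusted p = 0.0285). Without the libraries labelled Ts65Dn replicate 3, 0 genes of the partner, CLIC, KCNE and thyroid and retinoid lists were called in the HIP without the index, Stra6 of the last list was called higher there with the index, and Dio2 kept its call in the EC.

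Markers of cells that lie beside the choroid plexus moved with the index to a lesser degree. Over the 12 HIP libraries, r of the log2 of their summed level with the index was 0.83 for 7 leptomeningeal fibroblast genes and 0.70 for 6 tested ependymal genes, beside 0.98 for the 30 other choroid plexus genes. No marker of these lists was at 0 in every library of a group. The summed level of the leptomeningeal list ran from 45.0 CPM to 105 CPM in wt HIP and from 45.9 CPM to 182 CPM in Ts65Dn HIP, with 0 of 7 genes called between genotypes by edgeR (2 unadjusted), 1 by DESeq2 (Col1a1) and a median log2 fold change of 0.51. With the index as a term 0 of 7 were called by edgeR (4 unadjusted), DESeq2 again called Col1a1, and the median was 0.45. At the same index Col1a1 (0.83), Dcn (0.61) and Aldh1a2 (0.60), all genes in 2 copies, had larger values than Clic6, with edgeR adjusted p of 0.0863, 0.141 and 0.201. Without the library labelled Ts65Dn replicate 3 the median was 0.46 without the index and 0.47 with it, and 0 of 7 were called in both fits. The summed level of the ependymal list ran from 29.9 CPM to 99.4 CPM in wt HIP and from 27.3 CPM to 61.4 CPM in Ts65Dn HIP, with 0 of 6 called (0 unadjusted, 0 by DESeq2) and a median of -0.31, or of -0.40 and 0 called without that library. The part of these cells in the HIP values of Clic6 and Kcne2 was not tested.

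In the EC both triplicated genes had few counts. Clic6 ran from 0.908 CPM to 2.13 CPM in wt EC (25 to 51 counts, median 1.06 CPM) and from 0.325 CPM to 3.91 CPM in Ts65Dn EC (9 to 143 counts, median 2.33 CPM). Ts65Dn replicates 1, 2, 4 and 6 lay above every wt library, at 2.17 CPM to 3.91 CPM. Ts65Dn replicates 3 and 5 lay below every wt library, at 0.325 CPM and 0.618 CPM. The other triplicated genes were at 1.46-fold in Ts65Dn replicate 5 and at 1.01-fold in the library labelled replicate 3.

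Kcne2 had 1 to 4 counts in 10 of the 12 EC libraries, 19 counts in wt replicate 6 and 0 counts in wt replicate 2. The limit that a count of 0 allows there, 3 counts, is 0.0998 CPM, and it covers counting error only. A genotype difference of Kcne2 was not detectable in the EC at this depth.

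By edgeR 7 of the 10 genes were tested in the EC, since Kcne2, Folr1 and Otx2 fell under the filter on low counts. Of the 7, 0 were called, against 2.5% of 17049 genes. An unadjusted p under 0.05 was found for 3 of the 7, beside 3235 of the 17049 genes. The 3 were Kl at -0.35 (adjusted p = 0.188), Prlr at -0.66 (adjusted p = 0.123) and Sostdc1 at 0.62 (adjusted p = 0.136). DESeq2 called 0 of the 6 to which it gave an adjusted p, and 1078 genes in all. Kl ran from 5.64 CPM to 8.41 CPM in wt EC and from 4.77 CPM to 8.06 CPM in Ts65Dn EC. Prlr ran from 0.627 CPM to 1.37 CPM in wt EC and from 0.434 CPM to 0.825 CPM in Ts65Dn EC, with at most 50 counts. Sostdc1 ran from 0.654 CPM to 1.38 CPM in wt EC and from 1.19 CPM to 2.39 CPM in Ts65Dn EC. The ranges overlapped in all 3 genes. Omitting the library labelled Ts65Dn replicate 3 gave values of -0.30 for Kl (adjusted p = 0.272), -0.58 for Prlr (adjusted p = 0.176) and 0.65 for Sostdc1 (adjusted p = 0.139), with 0 of 7 called.

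The median log2 fold change of the 7 genes in the EC was -0.22, beside 0.0046 over all genes. Ttr had -0.82 (SE 0.61), from 3.66 CPM to 39.7 CPM in wt EC (median 7.17) and from 1.69 CPM to 15.8 CPM in Ts65Dn EC (median 4.30). Aqp1 had 0.29 and Kcnj13 -0.22, with at most 24 and 44 counts in a library. Omitting the library labelled Ts65Dn replicate 3 gave -0.69 for Ttr, 0.17 for Aqp1 and -0.057 for Kcnj13.

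For Clic6 the log2 fold change in the EC was 0.77 (SE 0.45, interval -0.18 to 1.72, adjusted p = 0.373). With the index as a term it was 0.78 (interval 0.11 to 1.44, adjusted p = 0.185), and the calls covered 2.53% of genes. Without the library labelled Ts65Dn replicate 3 the values were 0.99 (interval 0.25 to 1.74, adjusted p = 0.136) with 2.79% of 17229 genes called and, with the index, 0.93 (adjusted p = 0.0752) with 3.01% called. Clic6 was called in none of these fits. Over the EC libraries, r of the index with the genes that form it ran from -0.033 for Prlr to 0.93 for Otx2. The fits with the EC index therefore do not set Clic6 at a known amount of choroid plexus transcript, unlike those in the HIP.

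Log2 CPM of Clic6 minus the index was 0.78 ± 1.03 in Ts65Dn EC and 0.31 ± 0.27 in wt EC (SD, n = 6), a difference of 0.47 (exact permutation p = 0.297, adjusted p = 0.593). Without the library labelled Ts65Dn replicate 3 the difference was 0.78 (exact p = 0.0433, adjusted p = 0.0866), and without Ts65Dn replicate 6 it was 0.32. This subtraction takes a slope of 1, the lower end of the interval of the Clic6 slope in the EC. It also rests on the EC index, whose genes did not vary together as a set. For Kcne2 the means were -2.74 ± 0.46 and -2.55 ± 1.13, a difference of -0.19 (exact p = 0.738, adjusted p = 0.738), or of -0.28 without the library labelled Ts65Dn replicate 3 (exact p = 0.632, adjusted p = 0.632). With a median of 2.5 Kcne2 counts in either EC group, near the prior count of 2, this test could not show a genotype difference. It is 1 of the 4 tests over which these p were adjusted.

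**Figure D4:**
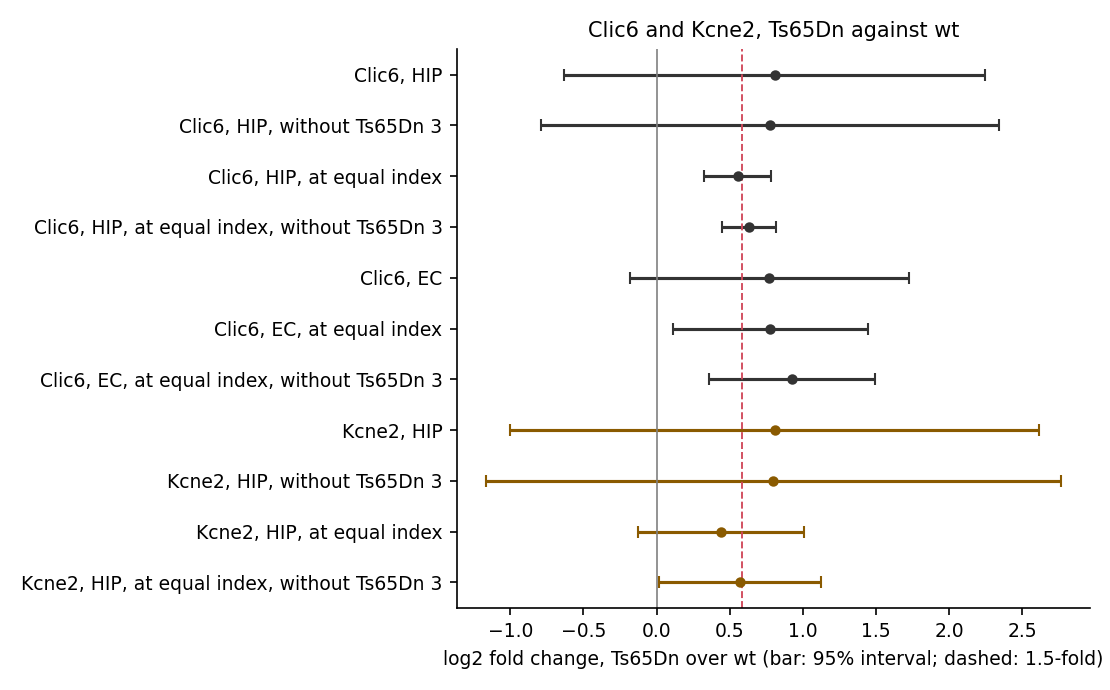
Log2 fold change of Ts65Dn over wt (horizontal axis, points) with 95% intervals (bars), for Clic6 in both regions and for Kcne2 in the HIP. Each is shown with and without the choroid plexus index as a term. The HIP fits, and the EC fit with the index, are also shown without the library labelled Ts65Dn replicate 3. The solid line marks 0 and the dashed line 0.58, the log2 of 3 copies over 2. The interval of Clic6 in the HIP narrows from -0.63 to 2.25 without the index to 0.33 to 0.78 with it.

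The lists around the choroid plexus gave little in the EC as well. Of the other choroid plexus epithelial genes 20 of 30 were tested, with 0 called by edgeR (4 unadjusted), 1 by DESeq2 (Slc29a4) and a median log2 fold change of 0.15, or of 0.19 and 0 called without the library labelled Ts65Dn replicate 3. The summed level of the ependymal list ran from 16.6 CPM to 22.4 CPM in wt EC and from 18.8 CPM to 25.3 CPM in Ts65Dn EC, with 0 of 5 tested genes called (1 unadjusted), 1 by DESeq2 (Ccdc153) and a median of 0.45. When the library labelled Ts65Dn replicate 3 was left out, Ccdc153 and Tmem212 of this list were called higher in Ts65Dn EC. The leptomeningeal list had 0 of 7 called (1 unadjusted, 0 by DESeq2) and a median of -0.085, or of -0.072 and 0 called without that library. The part of these cells in the EC values of Clic6 was not tested.

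The EC had far less of all 10 transcripts than the HIP of the same mouse. With the mouse as a block, all 10 were lower in the EC, where 68.4% of 18109 genes differed between regions and 35.5% were lower in the EC. Kcne2, Folr1 and Otx2, which fell under the filter on low counts in the EC alone, passed it here through their HIP libraries. Their values are therefore a description and not a test of a lower level in the EC. The log2 difference was -7.05 for Ttr, -6.78 for Kcne2, -5.19 for Folr1, -5.18 for Otx2, -5.03 for Prlr, -4.45 for Clic6, -4.05 for Aqp1, -3.92 for Sostdc1, -3.62 for Kl and -3.24 for Kcnj13, with standard errors from 0.22 to 0.85 and adjusted p of at most 2.80e-06. The mouse had more in its HIP than in its EC in 12 of 12 mice for 8 genes and in 11 of 12 for Aqp1 and Kcnj13. For Clic6, Kl, Otx2, Prlr and Sostdc1 every HIP library lay above every EC library.

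Of the 30 other choroid plexus genes 24 were also lower in the EC, led by Mfrp (-6.92) and Tmem72 (-6.66), with a median of -2.18. Higher there were 3, Slc22a8 (0.24), Igfbp2 (0.43) and Vat1l (1.32). Only 20 of the 30 passed the filter on low counts in the EC alone, and the rest entered through their HIP libraries. Mfrp and Tmem72 had EC medians of 0.075 CPM and 0.15 CPM. Of the ependymal genes 5 passed it in the EC alone, and of the CLIC genes 3. The counts of lower genes in these 3 lists are therefore a description and not a test. The 6 tested ependymal genes were all lower, from -2.59 for Tmem212 to -0.32 for Tm4sf1, and 2 of 7 leptomeningeal genes were lower, Lum (-1.51) and Ogn (-0.59). The regional identity of the samples was as labelled, with 6 of 6 hippocampal neuron genes lower in the EC (Dsp -6.20, C1ql2 -6.06, Fibcd1 -3.42, Prox1 -3.42) and 4 of 4 cortical neuron genes higher, from 1.59 for Rorb to 2.33 for Lamp5. Among the relatives of the 2 triplicated genes, Clic3 (-1.09), Clic4 (-0.95) and Kcne1l (-0.30) were lower in the EC, Kcna3 was higher (1.21), and Kcnq1 and Slc5a3 were not called. The triplicated neighbours differed little between regions, with Rcan1 at 0.40 and Smim11 at -0.15 as the called ones. In the thyroid hormone and retinoid list, the genes with a call included Stra6 (-2.31), lower in the EC, and Dio2 (0.43) and Rbp4 (1.67), higher there.

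The change between genotypes was not shown to differ between regions. By edgeR the interaction of genotype and region called 0 of the 10 genes (0 unadjusted) and 0% of 18109 genes, of which 742 had an unadjusted p under 0.05, and DESeq2 also called 0. For Clic6 the effect in the EC minus that in the HIP was 0.21 (SE 0.95, interval -1.80 to 2.22, adjusted p = 1.0) and for Kcne2 it was -1.95 (SE 1.21, interval -4.53 to 0.63, adjusted p = 1.0). Without the libraries labelled Ts65Dn replicate 3 they were 0.58 and -1.92, and 0 of the 10 genes were called. Kcne2, Folr1 and Otx2 passed the filter here through their HIP libraries. Without the mouse wt replicate 6, whose EC library had 19 counts of Kcne2, the Kcne2 value was -0.52. The Kcne2 value is thus no test of a genotype effect that differs between regions.

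Finally, Ttr in the HIP was set against Ttr in the EC of the same mouse, to see whether mice with much choroid plexus transcript in one region had much in the other. Over 12 mice Pearson's r was -0.14 (permutation p = 0.667) and Spearman's rho -0.25 (permutation p = 0.433), the only such relation tested, so that the adjusted p is the same. Without the 2 mice farthest from the HIP median r was -0.013 (permutation p = 0.968), and within genotypes it was -0.14 in wt and -0.22 in Ts65Dn. No relation was detectable with 12 mice, and without the mouse labelled Ts65Dn replicate 3 r was -0.093.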

How the data were processed

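RNA of 24 mouse libraries (HIP and EC of 6 Ts65Dn and 6 wt mice) was sequenced as single-end reads of 50 bp. The labels name poly-A RNA and the study's methods a ribosomal depletion kit for total RNA, so the selection of RNA is not settled here. The authors base-called with bcl2fastq 2.17.1.14 per the labels, aligned to GRCm38 with Hisat2 (Ensembl release 99 annotation) and deposited raw counts per gene made with HTSeq-count, without normalization. The strand setting of the counting is not given in the sources used here. The deposited tables of the authors' own comparisons hold fold changes, p-values and mean normalized counts from DESeq2 and FCROS, and were not used. All 24 count columns were mapped by label (0 left over), 0 rows named no gene, and 99.6% of the genes matched GENCODE vM21 (GRCm38). Libraries of a group are separate mice.

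The members and all gene lists were chosen with earlier results of these data known. Genes were tested with edgeR 4.0.16 (R 4.3.3; TMM, filterByExpr, quasi-likelihood test, Benjamini-Hochberg over all genes tested, called under 0.05), within each region with and without the choroid plexus index (mean log2 CPM, prior count 2), between regions with the mouse as a block, and for the genotype by region interaction with the mouse as a term. CPM used TMM-normalised library sizes. The standard error was the log2 fold change over the square root of F, and intervals are 95%. Exact permutation tests used all 924 splits, and the correlation 100000 permutations (Python 3.11.15, scipy 1.17.1). DESeq2 1.42.0, other normalization, filters and indices, the replicate block and leaving out each mouse were the alternatives. The scripts were tested on simulated data. The genes named are the 10 members, the partners and triplicated neighbours of Kcne2 and Clic6, the 5 genes most like the index, and of each list at most 4 (those called with the largest and smallest changes, otherwise the 2 most abundant). Genes that DESeq2 or a leave-one-out fit called, and Igfbp2, Slc13a4 and Aldh1a2, were named after their values were seen. The total counts of 23128589 to 40476492 leave a limit near 0.1 CPM in the EC for a count of 0. A single gene of the thyroid hormone and retinoid list is not reported here by name.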

Additional observations from a re-analysis of the deposited data

Results flagged for a closer look

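Of 52 groups of 6 libraries examined for a library far from the others (values of the 10 members, the index, and Clic6 and Kcne2 minus the index), 5 had one, where chance gives about 1 in 20. The HIP library of wt replicate 5 gave 3 of the 5, which had the lowest index of wt HIP. In it the log2 CPM of Kcne2 was -1.34, lowest of its group, log2 CPM of Kcne2 minus the index was -3.10, also lowest, and log2 CPM of Clic6 minus the index was 1.09, the highest of its group. Kcne2 had 11 counts there. The log2 CPM of Kl was 3.02 in Ts65Dn EC replicate 1, the highest of its group, and that of Sostdc1 was 1.30 in Ts65Dn EC replicate 5, also the highest. The cause of none of these values was tested.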

How the results depend on the processing

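All members tested were lower in the EC, and no member was called between genotypes without the index, under every alternative run, except that Kcne2 fell under the filter in the comparison of regions with Ts65Dn mice only. The replicate numbers did not pair mice across genotypes (r of deviations of same-numbered mice -0.20 to 0.15 in the HIP, -0.08 to 0.17 in the EC). With the number as a replicate block, the genes called were 29 in the HIP, 17 there with the index (0 of Clic6 and Kcne2, with Clic6 at 0.53), 36 in the EC and 211 there with the index, and Ttr (-0.25), Aqp1 (-0.13) and Prlr (-0.045) turned negative in the HIP. DESeq2 called 575 and 675 genes in the HIP without and with the index and 1078 and 1158 in the EC, and gave the Clic6 interaction as -0.26. With genes of low counts kept, 275 genes were called in the EC and 37 in the interaction. With summed CPM as the index 278 genes were called in the EC, and Kcne2 minus the index in the EC differed by 0.12, or by 0.39 with Ttr alone. Without the 3 HIP libraries of low index (chosen after seeing the data) 13 genes were called in the HIP and 4 with the index (0 members, with Clic6 at 0.66), and without Ts65Dn replicate 3 as well 92 and 78 (2 members, with Clic6 at 0.77 and Kcne2 at 0.87). For settings other than those that leave out libraries the cause was not tested.

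Leaving out each mouse in turn gave 54 to 318 genes called in the HIP (the fewest without Ts65Dn replicate 6, the most without Ts65Dn replicate 3), 47 to 331 with the index (likewise), 90 to 685 in the EC (without Ts65Dn replicates 1 and 6) and 145 to 666 with the index (without wt replicate 4 and Ts65Dn replicate 6). With the index in the HIP, 0 to 1 members were called, with Clic6 from 0.51 to 0.63 and Kcne2 from 0.26 to 0.57. Gene minus index ran from 0.47 to 0.66 for Clic6 in the HIP, from 0.32 to 0.78 for it in the EC (without Ts65Dn replicates 6 and 3), from 0.020 to 0.67 for Kcne2 in the HIP (without wt replicate 5 and Ts65Dn replicate 4) and from -0.51 to 0.17 for it in the EC. The HIP log2 fold change ran from 0.39 to 1.30 for Clic6, 0.46 to 1.32 for Kcne2, -0.35 to 0.80 for Ttr, -0.13 to 1.26 for Folr1, -0.50 to 0.88 for Aqp1, -0.012 to 0.76 for Otx2, -0.21 to 0.58 for Prlr and -0.35 to 0.84 for Kcnj13, lowest without Ts65Dn replicate 1 and highest without wt replicate 2. In the EC it ran from -1.28 to 0.048 for Ttr and -0.44 to 0.38 for Kcnj13. The interaction ran from -0.44 to 0.58 for Clic6, -2.66 to -0.52 for Kcne2 (highest without wt replicate 6), -1.43 to 0.16 for Ttr, -0.49 to 0.68 for Folr1, -0.19 to 0.97 for Aqp1, -0.074 to 0.66 for Sostdc1 and -0.87 to 0.23 for Kcnj13.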
